A study of Homo sapiens with 12 samples.

Results

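The nuclear-encoded subunits of the respiratory chain were followed in TK6 cells exposed to 3-methylcholanthrene (3-MCA). Members were taken by gene symbol from the deposited count table: NDUFA, NDUFB, NDUFC, NDUFS and NDUFV genes with a number, NDUFAB1, SDHA to SDHD, all UQCR genes, COX4 to COX8 genes, ATP5 genes, CYC1 and CYCS, leaving out pseudogenes. The rule found 89 members among 50006 genes, and left out 1 pseudogene. By complex these were 37 genes of complex I, 4 of complex II, 10 of complex III, the mobile carrier cytochrome c (CYCS), 18 of complex IV and 19 of complex V. NDUFA4, named for complex I, was placed with complex IV, to which it is now assigned.

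The respiratory chain sits in the inner mitochondrial membrane. Complex I (NADH dehydrogenase) and complex II (succinate dehydrogenase, also an enzyme of the tricarboxylic acid cycle) pass electrons to ubiquinone, complex III passes them to cytochrome c, and complex IV (cytochrome c oxidase) passes them to oxygen. Complexes I, III and IV pump protons, and complex V, the ATP synthase, uses the gradient to make ATP. Complexes I, III, IV and V combine a few subunits read from mitochondrial DNA with the many nuclear-encoded ones described here, while complex II is wholly nuclear-encoded. Several subunits of complex IV exist as a ubiquitous isoform and an isoform of heart, muscle, lung or testis.

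TK6 is a human B-lymphoblastoid suspension line used in genotoxicity testing, and 3-MCA is a polycyclic aromatic hydrocarbon and a ligand of the aryl hydrocarbon receptor. Poly(A)-captured RNA was sequenced from 4 groups of 3 libraries, all of the same line at 24 h: 0 µg/mL 3-MCA (control), 0.0004 µg/mL (low), 0.04 µg/mL (medium) and 4 µg/mL (high). Whether the 3 libraries of each group were grown as separate cultures is not stated, and the p-values below therefore reflect variation between libraries that may be only technical. In bulk RNA, fewer cells of a type and less RNA per cell cannot be told apart.

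Library totals ran from 9163368 to 19841387 counts (median 10097837). All 8 B-lymphoblast markers examined, CD79A among them, were above 1 CPM (counts scaled to a common library total), whereas 6 of 7 T and NK cell markers were below 1 CPM and 4 of 4 erythroid markers were at 0. Of the myeloid markers 3 of 6 were below 1 CPM, with S100A8 at 0, and S100A9 stood at 10.7, CSF1R at 1.96 and ITGAM at 1.70 CPM. Of the epithelial and stromal markers 4 of 6 were below 1 CPM, with EPCAM, COL1A2 and DCN at 0, while KRT8 stood at 141 and COL1A1 at 3.88 CPM. The libraries differed in the mitochondrial 16S ribosomal RNA (RNR2), which took from 1.43% of the counts in control replicate 3 to 7.99% in low replicate 3. The members together took 0.758% to 1.11% of a library's counts, with the lowest share in low replicate 3 and the highest in low replicate 2.

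Promoter sequences are shown first, because these genes are known as targets of a shared set of transcription factors: NRF1, the ETS factor GABP (also called NRF2), YY1 and the orphan receptor ERRalpha. RefSeq promoters of GRCh38.p14, from 250 bases before to 50 after the gene start, were at hand for 71 of the 89 members. Both strands were searched for GCGCANGCG (NRF1), CCGGAAGT (GABP), AAGATGGCG (YY1) and TCAAGGTCA (ERRalpha). The NRF1 letters read nearly the same on both strands, so 2 overlapping matches can mark 1 place. The windows below lie before the gene start, by the RefSeq table and by the count table alike, and show the NRF1 or GABP letters in members of complexes II to V, with the match in capitals and the sequence on the strand of the gene.
SDHA, NRF1 letters, chr5:218271-218319 (+): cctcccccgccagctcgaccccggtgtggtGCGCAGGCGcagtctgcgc
SDHD, NRF1 letters, chr11:112086733-112086801 (+): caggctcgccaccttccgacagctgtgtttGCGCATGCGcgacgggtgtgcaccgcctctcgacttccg
SDHD, GABP letters, chr11:112086765-112086832 (+): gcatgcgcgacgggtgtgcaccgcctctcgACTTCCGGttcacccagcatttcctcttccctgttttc
UQCRC1, NRF1 letters, chr3:48609654-48609722 (-): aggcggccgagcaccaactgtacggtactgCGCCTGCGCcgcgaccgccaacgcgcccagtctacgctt
COX8A, GABP letters, chr11:63974571-63974619 (+): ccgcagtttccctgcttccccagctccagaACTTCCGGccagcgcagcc
ATP5F1C, NRF1 letters, chr10:7788125-7788176 (+): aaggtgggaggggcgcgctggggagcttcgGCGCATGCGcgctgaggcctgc

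The NRF1 letters occurred in 23 of 71 member promoters (32.4%), against 15.96% of the 9150 promoters of genes tested here and 8.05% of all 27305 promoters. The sets are not quite alike, since the 71 also hold members with too few counts to test. Among these, COX8C, NDUFA11 and NDUFA3 held the NRF1 letters. GABP letters were found in 10 (14.1%, against 9.81% and 4.44%), YY1 letters in 8 (11.3%, against 4.46% and 1.85%) and ERRalpha letters in 1, SDHD (1.41%, against 0.219% and 0.359%). By complex, the NRF1 letters were in 9 of 32 promoters of complex I, 2 of 3 of complex II, 4 of 7 of complex III, 2 of 14 of complex IV and 6 of 14 of complex V. SDHA, the flavoprotein subunit of complex II, held the NRF1 letters 4 times, at 166, 117, 68 and 19 bases before its start. These matches are evenly spaced and their flanking bases are partly alike, so they need not be independent of each other. A match is a description of these letters in this window, not a binding site.

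Levels between genes were compared as CPM per kb of exon, averaged over the 12 libraries. The catalytic beta subunit of the ATP synthase, ATP5F1B, led all members with 520 CPM per kb. COX8A of complex IV followed with 409 CPM per kb. The highest member of complex III was CYC1, cytochrome c1, with 213, and of complex I NDUFV1, the flavoprotein that takes electrons from NADH, with 198 CPM per kb. SDHD, a membrane anchor, led complex II with 113 CPM per kb, and CYCS stood at 92.2. Among the members with enough counts to test, the median was 40.3 CPM per kb in complex I, 35.5 in complex II, 53.0 in complex III, 152 in complex IV and 119 in complex V. Complexes IV and V thus stood above the others by median level. Their median exon lengths were 1173 and 1051 bases, against 1337 in complex I, 2022 in complex II and 1436 in complex III. These lengths join all exon bases of a gene in the count table, and were longer than a single matched transcript in some members and shorter in others. In complex I, NDUFA10 had 18374 exon bases and a matched transcript of 1313. In complex IV, COX7A2L had 7817 and 1112. The reverse also occurred. SDHC of complex II had 2022 exon bases and a matched transcript of 13566. UQCRHL of complex III had 276 and 2180, and ATP5MC3 of complex V had 3430 and 5484. Whether the order of the complexes holds with transcript lengths was not tested.

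**Figure D1:**
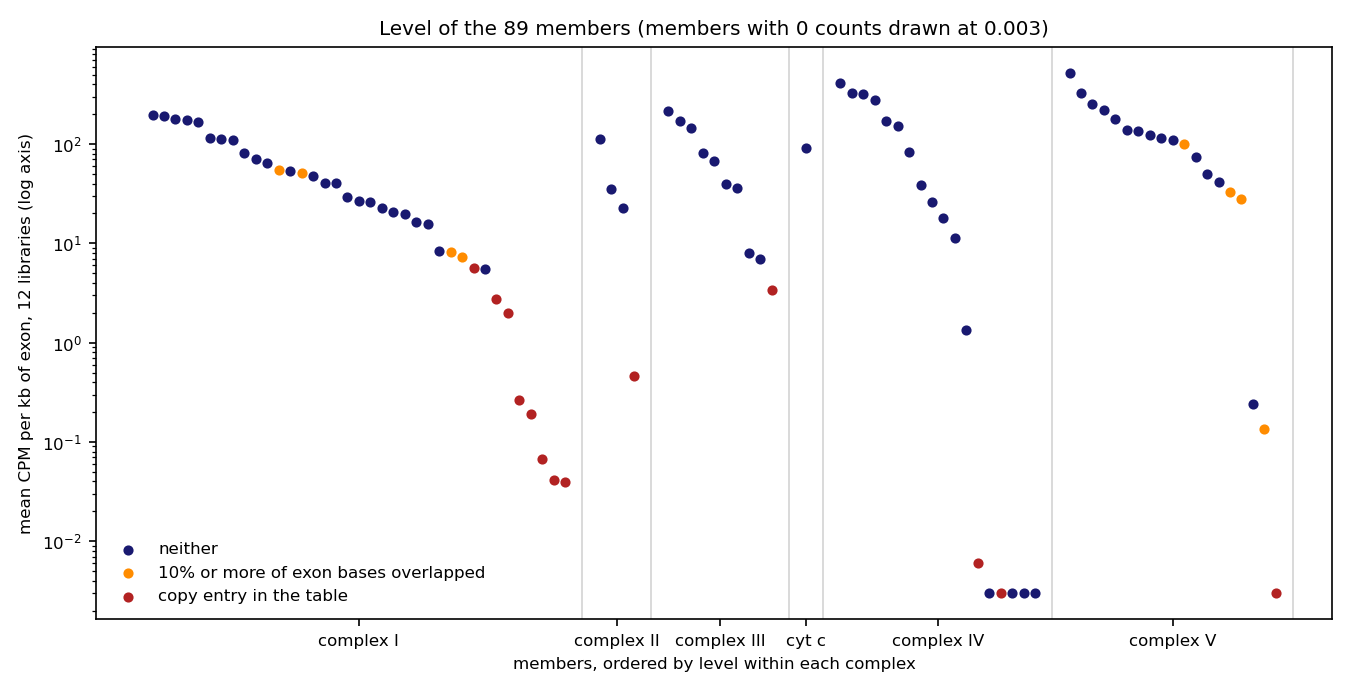
Mean CPM per kb of exon over 12 libraries (log axis) for each of the 89 members, ordered by level within each complex, with colours for members that have a copy entry in the table or 10% or more of their exon bases under exons of other genes. All members under 1 CPM per kb in complexes I and II have a copy entry, while complex IV ends in isoforms with 0 counts.

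A filter on low counts (filterByExpr of edgeR) kept 73 of the 89 members: 32 of complex I, 3 of complex II, 10 of complex III, CYCS, 11 of complex IV and 16 of complex V. Of the 16 that were not tested, 9 have a second entry in the table, a copy of the gene on a patch or alternate contig of the assembly. In all, 13 members have such a copy entry, and for those the level is uncertain. SDHB, the iron-sulfur subunit of complex II, had 65 counts over all libraries, and its copy entry had 3816. NDUFS3, a core subunit of complex I, had 5 counts against 2555 in its copy entry, and NDUFA6, an accessory subunit, 8 against 562. COX5B of complex IV had 1 count against 245, and NDUFB10 of complex I 5 against 239. ATP5IF1, the inhibitor of ATP synthase, had 0 counts against 930. A low value of these members is therefore not a sign that the gene is silent. Separately, 10 members have 10% or more of their exon bases under exons of other genes, led by COX8C (60.7%) and NDUFA2 (60.7%), followed by ATP5F1E (40.7%), the epsilon subunit of ATP synthase, which had 67 counts.

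Entries of such pairs also jumped between libraries of the same group. The copy entry of NDUFS3 had 465, 14 and 295 counts in control replicates 1 to 3, 12, 321 and 493 in low, 392, 37 and 453 in medium, and 30, 36 and 7 in high. The copy entry of ATP5IF1 had 427 counts in control replicate 2 and 394 in low replicate 1, and 4 to 26 elsewhere. NDUFS1, the largest iron-sulfur subunit of complex I, had 752, 38 and 287 counts in control, 36, 37 and 153 in low, 330, 437 and 59 in medium, and 533, 430 and 244 in high. For UQCRC2, a core protein of complex III, low replicate 2 stood alone with 335 counts, and with 439 in the copy entry, against 26 to 118 and 11 to 61 in the other libraries. Large and small counts occurred side by side within groups, and the cause was not tested.

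**Figure D2:**
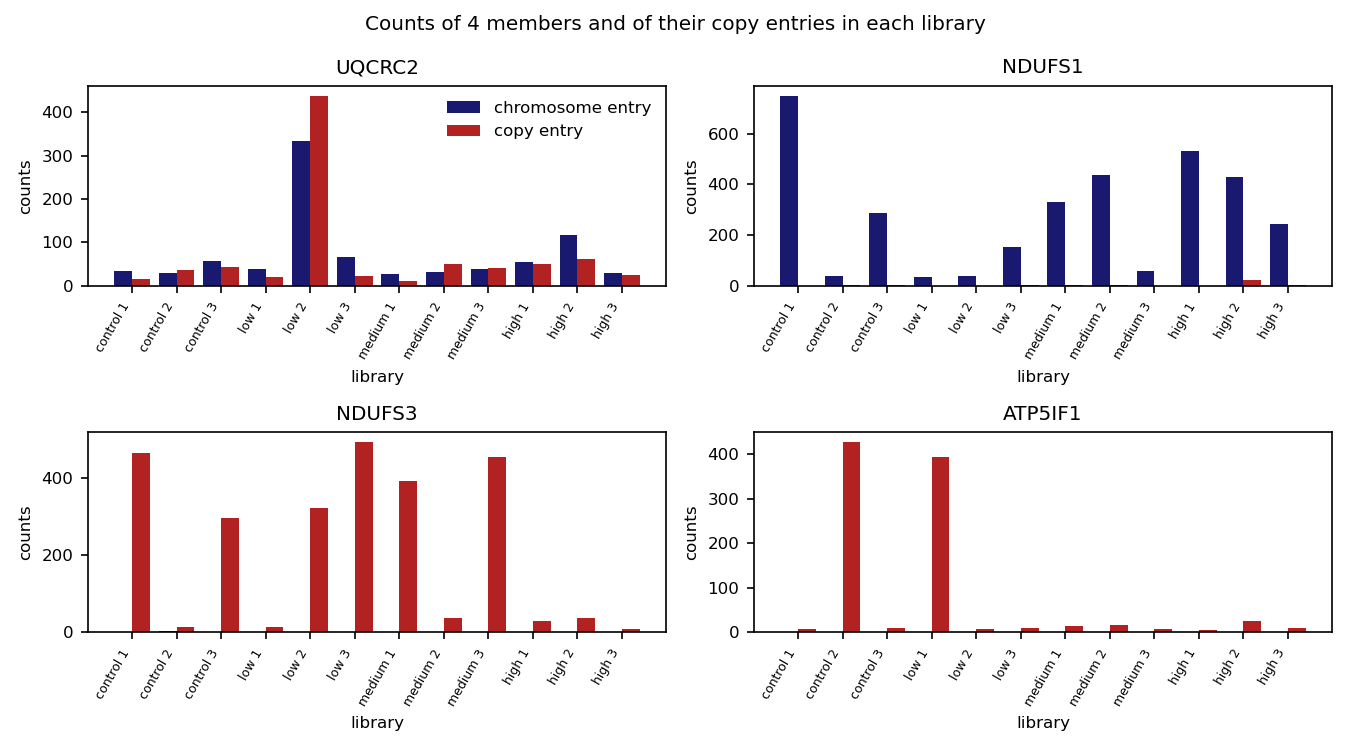
Counts of UQCRC2, NDUFS1, NDUFS3 and ATP5IF1 (dark bars) and of their copy entries (red bars) in each of the 12 libraries, on linear axes from 0. UQCRC2 and its copy rise together in low replicate 2, while the copy entry of NDUFS3 moves between 7 and 493 counts and varies within control, low and medium.

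TK6 cells carried the ubiquitous isoforms. COX4I1 had 31473 counts over the 12 libraries and its lung isoform COX4I2 had 0, which at a floor of 3 counts allows up to 0.00953% of the pair. COX6A1 had 24617 counts against 0 of the heart and muscle isoform COX6A2 (up to 0.0122%). COX6B1 had 23046 against 0 of the testis isoform COX6B2 (up to 0.0130%), and COX7B had 9160 against 0 of COX7B2 (up to 0.0328%). COX8A had 28460 counts and COX8C had 0, but COX8C has a copy entry, itself at 0, and overlapped exons. These limits cover counting error only. They take each count as an independent fragment, and would be wider if counts overstate fragments. The COX7A set differed, since 2 of its genes were abundant: COX7A2 had 13055 counts, COX7A2L, which takes part in assembling supercomplexes, had 12342, and the heart and muscle isoform COX7A1 had 58. Per length, COX7A2 made up 58.5% of the set, COX7A2L 37.1% and COX7A1 4.39%. These shares rest on unlike exon lengths of 5219, 7817 and 340 bases. In plain counts COX7A1 took 0% to 0.872% of the set in a library. It was at 0 counts in 3 libraries and was not tested.

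The c ring of ATP synthase is built from identical mature proteins made by 3 genes. ATP5MC1 stood at 331 CPM per kb, ATP5MC3 at 73.4 and ATP5MC2 at 41.6, which makes 74.2%, 16.5% and 9.34% of their sum. In plain counts ATP5MC3 took 40.1% to 51.1% of the set in a library, ATP5MC1 32.7% to 38.9% and ATP5MC2 16.2% to 23.6%. The order of the set thus depends on whether levels are taken per length. Exon lengths were 646, 3430 and 2721 bases for ATP5MC1, ATP5MC3 and ATP5MC2, with matched transcripts of 598, 5484 and 597. ATP5MG, a membrane subunit, had 18006 counts against 24 of its relative ATP5MGL.

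UQCRH, the hinge protein of complex III, has an intronless relative, UQCRHL. Their coding sequences (GENCODE 29, GRCh38) are shown with the differing bases in capitals. Within them, a read can tell the genes apart only where it covers such a base. UQCRH has 685 exon bases, and those outside the coding sequence were not compared.
UQCRH: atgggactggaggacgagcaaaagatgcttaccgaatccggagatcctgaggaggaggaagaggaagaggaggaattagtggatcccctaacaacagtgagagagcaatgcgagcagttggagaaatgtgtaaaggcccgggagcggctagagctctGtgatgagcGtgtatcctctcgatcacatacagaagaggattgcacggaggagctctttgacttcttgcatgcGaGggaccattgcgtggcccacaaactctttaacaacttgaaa
UQCRHL: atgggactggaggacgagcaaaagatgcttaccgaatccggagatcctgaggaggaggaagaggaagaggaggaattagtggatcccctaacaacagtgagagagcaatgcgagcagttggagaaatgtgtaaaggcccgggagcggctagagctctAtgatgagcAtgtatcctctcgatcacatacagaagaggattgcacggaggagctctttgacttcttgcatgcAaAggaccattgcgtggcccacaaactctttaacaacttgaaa
Over 273 coding bases the genes differed at 4 (98.5% identity), and the longest stretch without a difference was 157 bases, longer than the 150 nt reads. UQCRH lies on chromosome 1 from 46303698 to 46316776 and UQCRHL on the same chromosome from 15807374 to 15807649. UQCRH had 14005 counts and UQCRHL 305, or 0.873% to 3.06% of the pair in a library. How reads with several alignments were counted is not given, so both levels are uncertain.

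The design asks whether 24 h of 3-MCA at each concentration changed these genes. No member passed edgeR's quasi-likelihood test at a Benjamini-Hochberg adjusted p below 0.05 in low, medium or high, in the F test for any group, or in the trend over the rank of concentration: 0 of 73 tested members and 0 of 12030 tested genes in each (0.0% of genes called in all 5 comparisons). At an unadjusted p below 0.05 there was 1 member of 73 in low, UQCRC2, where 2.82% of all genes were below it. In medium it was NDUFA13 alone (1.99% of genes), and in high NDUFA7 alone (3.12% of genes). The F test had 2 such members, UQCRC2 and NDUFA7 (1.74% of genes), and the trend had 2, NDUFA7 and NDUFA13 (2.9% of genes). DESeq2 called 0 members as well, with 2, 1 and 1 below an unadjusted 0.05 in low, medium and high. Of all 12030 genes, 376, 246 and 420 were below it in DESeq2. Limma-trend on the deposited CPM also called 0 members, with the same 3 member numbers. With CPM plus 1 it had 329, 216 and 439 of the 12030 genes below an unadjusted 0.05. The smallest adjusted p of any member in edgeR's test was 0.911 (low), 0.998 (medium) and 0.810 (high).

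Over the tested members, 33 were above and 40 below control in low, with a median log2 difference of -0.02. In medium 26 were above and 47 below (median -0.06), and in high again 26 and 47 (median -0.13). Over all genes the same 3 medians were 0.01, -0.00 and 0.00. Between single libraries of 1 group, the median level of the members had a pooled SD of 0.23 (log2). That SD is of log2(CPM + 1), without the further scaling (TMM) used in the fit. The medians above are scaled differences between group means, so the measures are not alike. Without TMM the median in high was -0.19 for the members and -0.05 over all genes. The 3 comparisons share their control libraries. The median of complex I was near 0 at each concentration, with 0.05, 0.03 and 0.01. Complex IV had medians of -0.03, -0.11 and -0.15 and complex V of -0.09, -0.12 and -0.19, with 9 of 11 and 14 of 16 members below control in high. Complex III had 0.01, -0.08 and -0.19, with 8 of 10 below control in high, and the 3 tested members of complex II had -0.01, -0.05 and 0.04. Control had a mean 16S rRNA share of 2.48% ± 1.23, and the low, medium and high groups had 4.28% ± 3.36, 3.55% ± 1.10 and 4.97% ± 3.29 (SD, n = 3 each), all overlapping with control. The medians with this share as a covariate are given further on. None of these members passed the test, and without high replicate 1, high replicate 3 or control replicate 3 the median over all members in high was -0.03, -0.06 and -0.04.

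**Figure D3:**
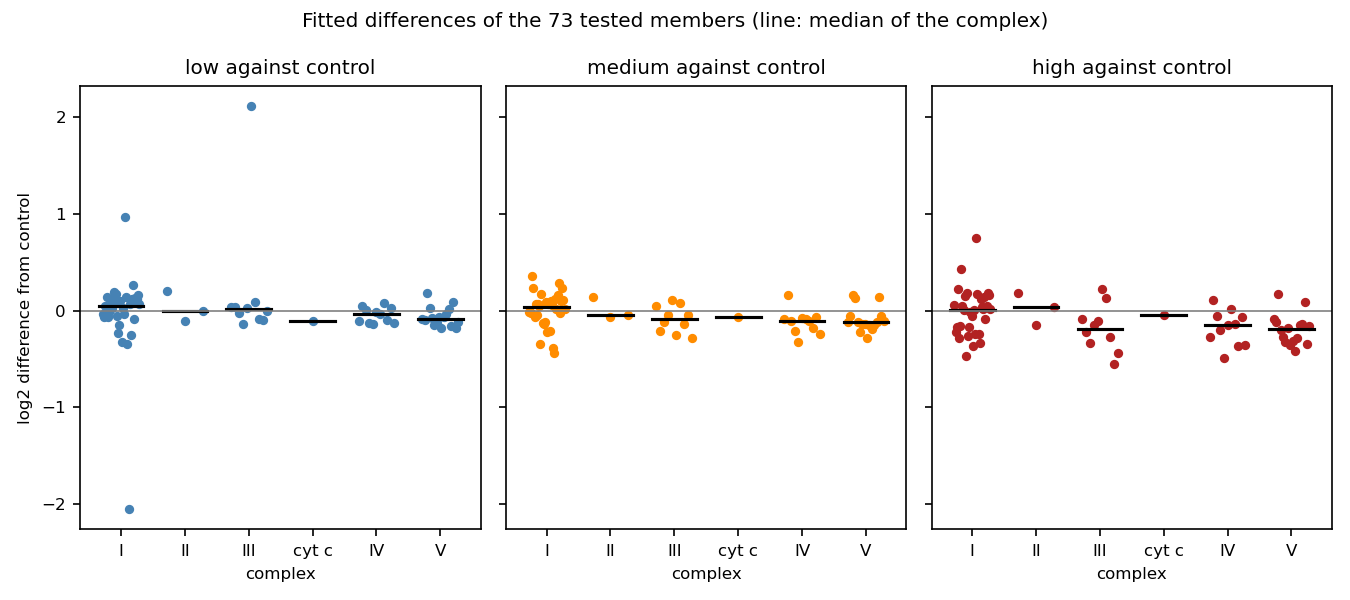
Fitted log2 difference from control of each of the 73 tested members, by complex, for low, medium and high; the line is the median of the complex. The median of complex I lies near 0 in each panel while its members spread to both sides, from NDUFB1 at -0.47 to NDUFB9 at 0.76 in high, most points of complexes IV and V lie below 0 in high, and UQCRC2 and NDUFS1 are farthest from 0 in low.

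In complex I, the members nearest to a call were accessory subunits. NDUFA7 stood at 59.1, 43.7 and 51.2 CPM in control, 46.6, 48.6 and 60.7 in low, 53.3, 55.1 and 49.0 in medium, and 64.9, 60.5 and 73.9 in high. The 3 high libraries lay above all 3 controls, and the other groups overlapped with control. Its log2 difference in high was 0.43 ± 0.14 (SE; edgeR adjusted p = 0.810). NDUFA13, also known as GRIM-19, stood at 85.3, 85.9 and 76.9 CPM in control, 96.7, 82.5 and 86.6 in low, 99.4, 108 and 102 in medium, and 99.8, 76.3 and 102 in high. Medium lay above control without overlap, while high replicate 2 was the lowest of all 12 libraries. The log2 difference was 0.35 ± 0.11 in medium (SE; edgeR adjusted p = 0.998) and 0.22 ± 0.11 in high (adjusted p = 0.810).

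NDUFS6, a subunit near the iron-sulfur centres, stood at 87.7, 96.2 and 84.4 CPM in control and at 113, 103 and 101 in medium, where its log2 difference was 0.28 ± 0.15 (SE; edgeR adjusted p = 0.998). NDUFAB1, the mitochondrial acyl carrier protein, differed by 0.19 ± 0.11 in low (SE; edgeR adjusted p = 0.911), with control and low overlapping. On the other side, NDUFS4, an accessory subunit whose loss causes Leigh syndrome, stood at 24.3, 27.9 and 27.5 CPM in control and 24.8, 20.9 and 19.7 in low, a log2 difference of -0.25 ± 0.12 (SE; edgeR adjusted p = 0.911). These groups overlapped by 1 library. NDUFB3, a membrane-arm subunit, was at 30.1, 29.9 and 34.0 CPM in control, 26.8, 30.6 and 20.9 in low, 25.5, 29.7 and 28.1 in medium and 25.01, 28.6 and 26.8 in high. It lay below control without overlap in medium and in high, by log2 differences of -0.14 ± 0.14 and -0.17 ± 0.14 (SE), neither called. NDUFC2 in medium (-0.39 ± 0.28) and NDUFB6 in high (-0.36 ± 0.27), both of the membrane arm, were also not called. NDUFS1, with the jumps shown above, stood at 79.4, 4.01 and 21.0 CPM in control and 3.64, 3.94 and 16.5 in low. Its log2 difference in low was -2.05 ± 0.93 (SE; edgeR adjusted p = 0.911), and -0.64 without control replicate 1.

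In complex II, SDHA stood at 192, 165 and 156 CPM in control and at 191, 155 and 212 in high, with a log2 difference of 0.18 ± 0.15 (SE; edgeR adjusted p = 0.810). SDHC and SDHD, the membrane anchors, differed by -0.15 ± 0.28 and 0.04 ± 0.10 in high (SE). Groups overlapped in all 3, and SDHB could not be tested.

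Complex III held the largest fitted difference of any member, UQCRC2 in low. Its levels were 3.48, 3.17 and 4.25 CPM in control, 3.94, 35.6 and 7.10 in low, 2.84, 2.43 and 3.69 in medium, and 3.66, 5.95 and 2.60 in high. Only low replicate 2 stood apart, and the low group overlapped with control. The log2 difference was 2.11 ± 0.65 (SE; edgeR adjusted p = 0.911), and 0.65 without low replicate 2. UQCRC1, the other core protein, differed by -0.11 ± 0.08 in high (SE; edgeR adjusted p = 0.810). CYC1 stood at 265, 252 and 262 CPM in control and at 214, 239 and 251 in high, below control without overlap but by a log2 difference of only -0.09 ± 0.09 (SE). UQCRFS1, the Rieske iron-sulfur protein, differed by 0.13 ± 0.10 in high (SE). UQCRH and UQCRHL differed by -0.27 ± 0.28 and -0.55 ± 0.59 in high (SE), neither called.

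CYCS, the carrier between complexes III and IV, stood at 472, 567 and 556 CPM in control, 504, 557 and 383 in low, 463, 507 and 513 in medium and 469, 591 and 425 in high. The groups overlapped, and its log2 differences were -0.11, -0.07 and -0.05, each with an SE of 0.15.

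For complex IV, COX6C had the lowest difference in high. It stood at 68.0, 99.7 and 115 CPM in control and at 47.2, 100 and 44.6 in high, a log2 difference of -0.49 ± 0.38 (SE; edgeR adjusted p = 0.810). High replicate 2 lay among the controls and the other two below them. COX4I1, which binds ATP as a regulatory subunit, stood at 205, 248 and 282 CPM in control and 161, 270 and 155 in high (-0.27 ± 0.27, SE), the same arrangement. COX5A was above control in all 3 comparisons, by 0.05 ± 0.12, 0.17 ± 0.12 and 0.11 ± 0.12 (log2, SE). COX7A2L differed by -0.08 ± 0.09 in medium and 0.01 ± 0.09 in high.

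In complex V, ATP5F1C, the gamma subunit that turns with the rotor, was above control by a like amount at each concentration. Its levels were 179, 193 and 185 CPM in control, 206, 200 and 208 in low, 211, 195 and 202 in medium, and 207, 174 and 220 in high. Low and medium lay above control without overlap, while high replicate 2 was the lowest of all libraries. The log2 differences were 0.18, 0.16 and 0.17, each with an SE of 0.10 (edgeR adjusted p = 0.911, 0.998 and 0.810). The alpha and beta subunits of the catalytic head differed by no more than about their SE. ATP5F1B averaged 979 ± 32.4 CPM in control and 869 ± 82.4 in high (SD, n = 3), a log2 difference of -0.12 ± 0.11 (SE), and ATP5F1A differed by -0.09 ± 0.13. ATP5F1D, the delta subunit of the rotor stalk, differed by -0.20 ± 0.11 in high (SE; edgeR adjusted p = 0.810).

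Members whose 3 libraries all lay above or all below the 3 controls were few. In low, 1 of 73 lay above (ATP5F1C; 2.34% of all genes did) and 1 below (NDUFS7, a core subunit of complex I; 4.99% of genes). Medium had 4 above (NDUFS6, ATP5F1C, NDUFA13 and NDUFB11; 3.26% of genes) and 2 below (NDUFB3 and NDUFC2; 8.3% of genes). High had 1 above (NDUFA7; 1.85% of genes) and 2 below (NDUFB3 and CYC1; 8.28% of genes). As shares of the members, these were 1.37%, 1.37%, 5.48%, 2.74%, 1.37% and 2.74%.

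The summed shares of the complexes varied between libraries of the same group, and the extent differed by complex. The share of complex IV averaged 0.163% ± 0.0327 of the counts in control and 0.140% ± 0.0400 in high (SD, n = 3). It was 0.104% in low replicate 3 and 0.202% in low replicate 2, a ratio of 1.94 between libraries given the same treatment. Over all 12 libraries, the highest share was 1.63 times the lowest in complex V, 1.54 times for CYCS, 1.39 times in complex III, 1.15 times in complex I and 1.10 times in complex II. In each group the library with the most 16S rRNA had the lowest share of complex V (4 of 4 groups), and the same held for CYCS in 4 of 4 and for complexes III and IV in 3 of 4, but for complexes I and II in 1 of 4. Small noncoding RNAs moved as well: 7SK RNA (RN7SK) stood at 90.0 CPM in low replicate 3 and at 5.11 in low replicate 2. Control averaged 13.8 ± 6.23 CPM of it, and the low, medium and high groups 40.5 ± 44.1, 26.6 ± 18.1 and 43.1 ± 33.1 (SD, n = 3 each), with overlapping groups. All of these comparisons between libraries were chosen after the values were seen.

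**Figure D4:**
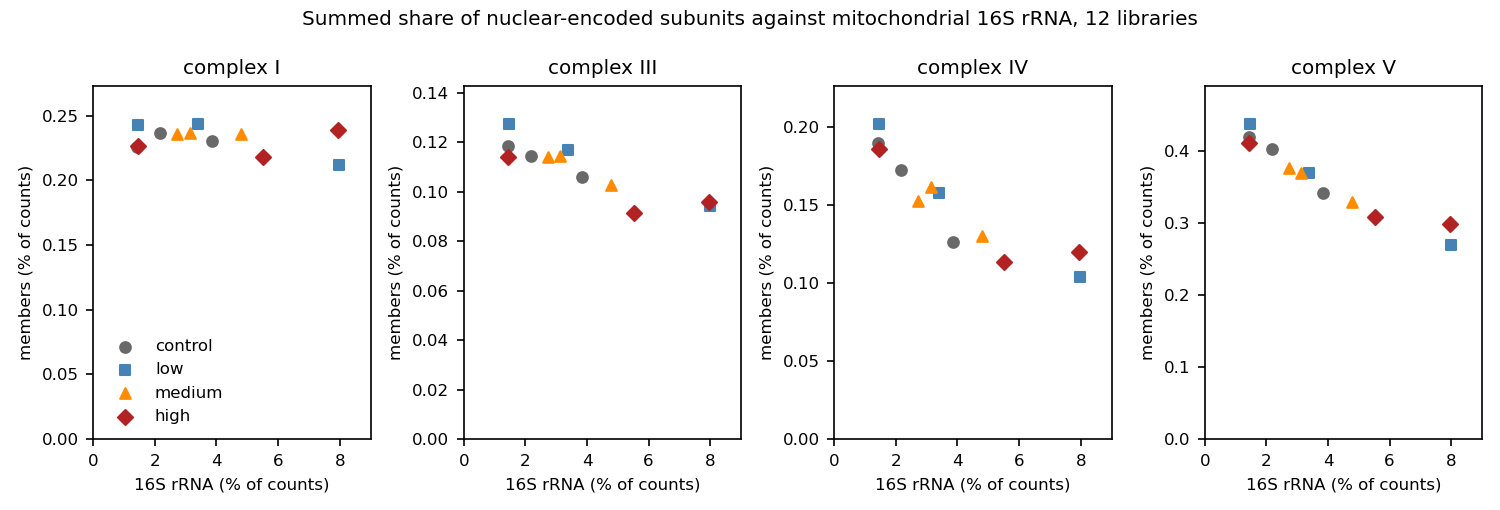
Summed share of counts of the members of complexes I, III, IV and V (y axes from 0) against the share of mitochondrial 16S rRNA, 1 point per library, with colours and shapes for the 4 groups. The share of complex IV runs from 0.202% down to 0.104% as 16S rRNA runs from 1.46% to 7.99%, while complex I stays between 0.212% and 0.244%.

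To describe this within groups, the library with the most 16S rRNA was set against the one with the least in each group: control replicates 1 and 3 (3.84% and 1.43%), low 3 and 2 (7.99% and 1.46%), medium 1 and 2 (4.80% and 2.73%), and high 3 and 2 (7.96% and 1.45%). The complex IV share was 0.126% against 0.190% in control, 0.104% against 0.202% in low, 0.130% against 0.153% in medium and 0.120% against 0.186% in high. For complex I it was 0.23% against 0.226%, 0.212% against 0.243%, 0.236% against 0.236% and 0.239% against 0.226%. So complex IV was lower in the library richer in 16S rRNA in every group, and complex I clearly so in the low group alone.

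Gene by gene, the difference was taken as log2(CPM + 1) in the library with the most 16S rRNA minus that with the least, averaged over the 4 groups. The median was -0.67 in complex IV, -0.65 in complex V, -0.63 in complex III, -0.10 in complex I and -0.07 in complex II, against 0.00 over all 12030 genes. In 4 of 4 groups the difference was negative for 10 of 11 members of complex IV, 12 of 16 of complex V, 5 of 10 of complex III and 13 of 32 of complex I. Together these and SDHC and CYCS made 42 of 73 members (57.5%), against 24.8% of all genes. The members share the same 8 libraries, so these counts are a description and carry no test.

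The lowest values belonged to small subunits. ATP5PF, coupling factor 6 in the stalk of ATP synthase, had -1.38. Its CPM were 32.9, 43.7 and 64.8 in control, 39.2, 68.8 and 14.9 in low, 31.2, 59.4 and 43.3 in medium and 29.2, 58.2 and 19.4 in high, so that the library richest in 16S rRNA was the lowest of its group each time. NDUFB1 of complex I had -1.36, ATP5ME of complex V -1.20, UQCRQ of complex III -1.15, ATP5MF of complex V -1.13, and NDUFA4 and COX7C of complex IV -1.10 each. COX7C stood at 119, 213 and 260 CPM in control, 186, 280 and 78.5 in low, 143, 173 and 195 in medium and 102, 237 and 103 in high. Its pooled SD within groups was 0.66 (log2), against 0.07 for NDUFA9, the steadiest member.

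At the other end, the highest values belonged to NDUFS1, NDUFV1 and SDHA. NDUFV1 was at 340, 296 and 231 CPM in control, 345, 271 and 299 in low, 384, 291 and 313 in medium and 306, 233 and 403 in high, with a mean difference of 0.47. SDHA had 0.36, NDUFS6 0.25 and NDUFS8 and NDUFV3 0.22 each, all positive in 4 of 4 groups, as was NDUFV2 (0.20). NDUFB7, a subunit of the membrane arm, had 0.27 and was positive in 3 of 4 groups. NDUFS and NDUFA members lay on both sides, with NDUFS7 at 0.03, NDUFS4 at -0.07, NDUFA12 at -0.30 and NDUFA2 at -0.40. COX7A2L (0.16) was the 1 member of complex IV that was higher in 4 of 4 groups. NDUFS1 had 0.94 through its jumps and was negative in the high group.

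Coding length went along with this order. All 73 tested members were matched to coding sequences of GENCODE 29, taking for each gene the transcript with the longest. The median was 435 bases, against 1422 over the 83.3% of all tested genes that matched. Whether these are the transcripts present in TK6 cells was not tested. Across members, coding length and the mean difference had a Spearman rho of 0.60 (n = 73 genes), and across all matched genes 0.07 (n = 10026). Members under 500 coding bases had a median difference of -0.58 (n = 44), those from 500 to under 1000 bases -0.10 (n = 18) and those of 1000 or more 0.02 (n = 11). All genes of the same 3 lengths had -0.22, -0.03 and 0.00. Exon length had a rho of 0.24 across members and -0.05 across all genes. The share of members lower in 4 of 4 groups was 58.1%, 57.9% and 56.5% at exon lengths under 1 kb, from 1 to 2 kb and of 2 kb or more. Among all genes of these lengths it was 34.0%, 22.5% and 24.5%. The GC content of the coding sequence had a rho of 0.24 across members and 0.13 across all matched genes. Genes in these correlations share the same libraries and are not independent. The part of RNA quality or of the capture step in this pattern was not tested.

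With the log2 share of 16S rRNA as a covariate, added after the data were seen, the median difference of the members turned from negative to 0.09 in low, 0.11 in medium and 0.06 in high. Above control were then 59, 60 and 49 of 73 members, beside 5833, 6105 and 5706 of the 12030 genes. Below an unadjusted p of 0.05 were 8, 8 and 6 members, where 5.29%, 4.41% and 4.09% of all genes were below it. With the covariate edgeR called 0 members, and 1, 1 and 2 genes in all. The median in low also changed sign with single libraries: it was 0.14 without low replicate 3, 0.08 without control replicate 3 and -0.21 without low replicate 2. In medium it was 0.05 without control replicate 3. In high, leaving out replicate 2, the high library with the least 16S rRNA, gave -0.27, with 16 members below an unadjusted p of 0.05 (4 above and 12 below control), 0 called, and 2264 of 12030 genes below it.

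The genes that surround the complexes were counted from fixed lists, and edgeR called 0 of them in each comparison. The 13 mitochondrially encoded subunits were above control in 10, 11 and 13 cases in low, medium and high (medians 0.11, 0.18 and 0.37). In high, 8 of them were below an unadjusted p of 0.05 in edgeR's test, where 3.12% of all genes were below it. These subunits share the same libraries and are not separate results. Their summed share of counts was 12.9% ± 2.07 in control and 14.9% ± 1.68 in high (SD, n = 3 each), with overlapping groups. The direction of their median in high was opposite to that of the nuclear-encoded members of complexes III, IV and V. Assembly factors showed no common direction: medians in high were 0.00 for the 21 tested of complex I, 0.05 for the 4 of complex II, 0.10 for the 9 of complex III, -0.00 for the 23 of complex IV and -0.12 for the 4 of complex V. Among them CMC1, a copper-related assembly factor of complex IV, had 0.64 ± 0.21 in high (SE; edgeR adjusted p = 0.810), and COA6 had 0.41 ± 0.17. The 17 genes of ubiquinone synthesis and other electron donors had a median of -0.02 in high, with COQ2 at 0.34 ± 0.11 and DHODH at -0.32 ± 0.14 (SE). Of 18 genes of the tricarboxylic acid cycle, 15 were below control in high (median -0.10), among them DLAT and IDH3A, none called. In low and medium 11 and 12 of the 18 were below, and over all genes 5938 of 12030 were below in high. These genes share the same libraries, so the counts carry no test. The 14 tested regulators, among them YY1 (0.15 ± 0.12 in high, SE) and GABPB1 (-0.23 ± 0.18), had a median of 0.02.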

How the data were processed

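Reads were processed with fastp 0.23.4, HISAT2 2.2.1, featureCounts 2.0.6 and MultiQC 1.27 on GRCh38.p14, per the submitters' processing notes. Their options, strandedness and multi-mapping rule: not given in the sources used here. Per library and gene, the authors deposited raw counts (12 libraries) and CPM, which equalled count over library total within 5e-05. Of count values from 1 to 10, 68.7% were even; the cause was not tested, and counts may overstate independent fragments. A floor of 3 counts marks undetected genes.

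Genes were kept with filterByExpr (12030), scaled with TMM and fitted by quasi-likelihood in R 4.3.3 with edgeR 4.0.16 in a single model of the 12 libraries (8 residual df), Benjamini-Hochberg over all genes. The fit was tested on simulated data, in which all genes had the same dispersion and varied independently. That test does not cover differences between libraries that many genes share. Alternatives used DESeq2 1.42.0, limma 3.58.1 (log2 of CPM plus 1 or 0.1), other scalings and filters, a replicate block, pairwise fits of 2 groups and leave-one-out fits; the 16S covariate and a median without copied or overlapped members were added after seeing the data. Members and lists were chosen with earlier results of these data known. Named are fixed core and isoform members, for each concentration the 3 members above and 3 below control with the smallest p, the highest and lowest tested level per complex, members at 0 in 6 or more libraries, and up to 3 genes per other list by p in high; members named in the comparisons between libraries, and in the lists of overlapped members and of groups without overlap, were chosen after their values were seen. Protein sequences were not used here.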

Additional observations from a re-analysis of the deposited data

How the results depend on the processing

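Counts of called genes, 0 in every main comparison, moved as follows, while called members stayed at 0 with 1 exception. Without a count filter 3, 7 and 4 genes were called in low, medium and high, 35 in the F test and 1 in the trend, and 1 member, UQCRC2, in the F test (adjusted p = 0.0490 in edgeR's test), a gene with a copy entry and 1 library apart. DESeq2 called 3, 6, 5, 16 and 1 genes in the same order. Limma-trend on CPM plus 1 called 1, 2 and 1 genes in low, medium and high and 2 in the F test. Fits of only the 2 groups compared called 2 genes in low and 6 in medium. No composition factor gave 1 gene in the F test. The 16S covariate gave 1, 1, 2, 5 and 1 genes. Leaving out 1 library gave 0 to 2 genes in low, medium and high and 0 to 4 in the F test, with 0 members throughout. The replicate block gave 2 genes in the F test and 0 otherwise, with 0 members called. Same-numbered libraries deviated together with correlations from -0.42 to 0.63, and 6 of 12 correlated best with a library of their own number, so the numbers were not taken as pairs; medians with the block were -0.04, -0.06 and -0.12. Without a composition factor the median over all genes in high was -0.05 and that of the members -0.19. Leaving out single libraries gave medians of the members in low from -0.21 to 0.14, for medium from -0.16 to 0.05, and for high from -0.27 to -0.03; without copied or overlapped members (62 left) they were -0.01, -0.06 and -0.10. The log2 differences of the members nearest to a call kept their sign in every alternative, among them NDUFA7 in high (0.32 to 0.53) and NDUFA13 in medium (0.30 to 0.38). These members were picked by small p in the same libraries that the alternatives refit, so a kept sign is not separate support. The number of libraries, 3 a group, and the spread between them limit what could be called; the levels of copied members are limited by how their reads were assigned.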
